A study of Homo sapiens with 4 samples.

Results

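The imprinted DLK1-DIO3 domain at chromosome band 14q32 holds a dense cluster of miRNA genes, and its strands were followed here in 4 small-RNA libraries of HCT116, an established line from a human colorectal carcinoma. Members were chosen by name from a list of 44 miRNAs of the locus, by a rule that uses no measured value, though the list was drawn up with earlier results of these data known. The table holds 59 rows for 40 of these names, out of 1345 rows in all, because many hairpins give a row for each strand. The other 4 names (miR-136, miR-412, miR-431 and miR-432) were not analysed here. The cells expressed, under control of doxycycline, a short hairpin RNA (shRNA) that targets SAE2, the catalytic subunit of the enzyme that activates SUMO for attachment to proteins. There were 2 such lines, sh1 and sh2, each with its own shRNA. The labels mark 2 libraries as minus (replicate 1 is sh1, replicate 2 is sh2) and 2 as plus, read here as without and with induction. Plus replicate 1 carries no shRNA number in its label and was placed in the sh1 line by elimination. The protocol text gives 3 days of doxycycline for every library, so the reading of minus and plus rests on those words alone. An effect of doxycycline itself cannot be told apart from that of the shRNA, and SAE2 mRNA is not measured by these libraries.

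In the DLK1-DIO3 domain the paternal chromosome gives the protein-coding genes DLK1, RTL1 and DIO3, and the maternal chromosome gives long non-coding RNAs, among them MEG3, MEG8 and MEG9, from which the miRNAs are cut. The miRNAs fall into an upstream group beside MEG3 and antisense to RTL1 and a larger downstream group from miR-379 to miR-656. They are known for high levels in brain and placenta, and in mice the downstream group is needed for the metabolic adaptation of the newborn. The libraries do not tell the parental copies apart, so imprinting itself was not measured.

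The strands on which the results turn are shown 5′ to 3′ with the seed, bases 2 to 8 of the mature strand, in capitals. The first 4 include one strand that rose and the strands with the highest levels among names that give the arm. miR-127-3p is the upstream strand with reads in every library, and miR-376a-3p was the tested strand with the lowest change.
miR-409-3p: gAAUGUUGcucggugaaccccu
miR-409-5p: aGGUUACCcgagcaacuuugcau
miR-379-5p: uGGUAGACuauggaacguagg
miR-411-5p: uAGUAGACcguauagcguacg
miR-127-3p: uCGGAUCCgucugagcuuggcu
miR-376a-3p: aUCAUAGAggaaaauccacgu
Sequences are from RefSeq (GRCh38.p14), where 42 of the 59 row names had a mature sequence of exactly that name. The other 17 names give no arm, and each was matched to its hairpin only. This holds for miR-655, the other strand that rose, and for miR-889. Their hairpins are shown with both mature strands in capitals, since the table does not say which of them was counted.
miR-655: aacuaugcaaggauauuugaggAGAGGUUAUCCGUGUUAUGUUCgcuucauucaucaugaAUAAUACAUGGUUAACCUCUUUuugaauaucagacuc
miR-889: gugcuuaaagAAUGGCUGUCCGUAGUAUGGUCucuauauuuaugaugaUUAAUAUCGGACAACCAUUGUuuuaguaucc
The miR-655 hairpin lies at chr14:101049550-101049646 and the miR-889 hairpin at chr14:101047901-101047979, both on the plus strand in an intron of MIR381HG in GENCODE release 29. The miR-409 hairpin, at chr14:101065300-101065378 on the same strand, lies in an intron of MEG9.

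The 42 named strands carry 38 different seeds, so most members differ in the sites they can pair with. Pairs with a shared seed were miR-379-3p and miR-411-3p, miR-485-3p and miR-539-3p, miR-541-3p and miR-654-5p, and the copies of miR-1185. The first 2 and the last of these pairs are shown. Beyond the seed, miR-379-3p is close to miR-411-3p and the miR-1185 copies to each other, so the counting could split reads between their names; miR-485-3p and miR-539-3p share little beyond the seed.
miR-379-3p: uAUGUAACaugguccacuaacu
miR-411-3p: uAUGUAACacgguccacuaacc
miR-485-3p: gUCAUACAcggcucuccucucu
miR-539-3p: aUCAUACAaggacaauuucuuu
miR-1185-1-3p: aUAUACAGggggagacucuuau
miR-1185-2-3p: aUAUACAGggggagacucucau
Counted from the 5′ end, miR-1185-2-3p differs from miR-1185-1-3p by U20C alone. miR-411-3p differs from miR-379-3p by U10C and U22C. Which copy of miR-1185 gave the reads is therefore uncertain. GC content had a median of 45.5% over the 42 strands (23.8% to 72.7%) and of 50% over the 1036 other rows matched by name, which is given as a description.

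Libraries held 9700472 to 10519207 normalised read counts, and 1 read was worth between 0.945 and 1.03 of these, so that 3 reads lay at 2.83 to 3.08. The labelled epithelial line was checked on its markers: the highest of 14 epithelial rows was miR-200c-3p with a mean of 126627. These rows summed to 283043 and 272263 in the minus and 321729 and 321653 in the plus libraries. Of 13 tested rows 6 rose (miR-192-5p, miR-194-5p, miR-200a-3p, miR-200b-3p, miR-200b-5p and miR-215) and none fell. Over all tested miRNAs, the background for each marker list here, 13.4% rose and 15.1% fell. Stromal markers (11 rows) summed to 23879 and 23838 against 20628 and 24075, with 4 of 9 rising and 2 falling. Among the 4 are miR-199a-3p and miR-199b-3p, whose values are the same in every library, so 1 measurement is counted under both names. Blood markers (8 rows) summed to 1005 and 1226 against 1030.3 and 1202, with none of 4 called. The highest blood row was miR-486-5p, with a mean of 914, and miR-144-3p was near 0. Markers of neurons and muscle (7 rows) summed to 50330 and 47955 against 58226 and 63815, and the strands that rose, 2 of 4, were both of miR-9. The epithelial sum thus moved with the condition, and the sum for neurons and muscle did so mainly through miR-9. In that list miR-128 went from 10600 and 10686 in the minus to 10259 and 10183 in the plus libraries, and miR-133a was near 0. miR-124-3p stood at 13.1 and 13.1 in the minus and 31.8 and 22.5 in the plus libraries and did not pass. The part of these markers in the results below was not tested.

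The cluster was expressed at a low level in HCT116, and nearly all of it came from the downstream group. The 59 rows together held 1374 and 1170 normalised counts in the minus libraries (replicates 1 and 2), against 1654 and 1503 in the plus libraries. As a share of the library totals these are 0.0140%, 0.0121%, 0.0168% and 0.0143%. Both plus sums lay above both minus sums, at 1578 ± 107 against 1272 ± 144 (SD, n = 2 each), a ratio of 1.24. As shares of the totals, plus replicate 2 was above minus replicate 1 by a small margin, 0.0143% against 0.0140%. The downstream group gave 98.7% of the summed level and the upstream group 1.27%, across a gap of 111 kb between miR-370 and miR-379. Of 50 downstream rows 35 had at least 3 estimated reads in every library, against 1 of 9 upstream rows. In 7 of the 9 upstream rows no library reached 3 reads.

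**Figure D1:**
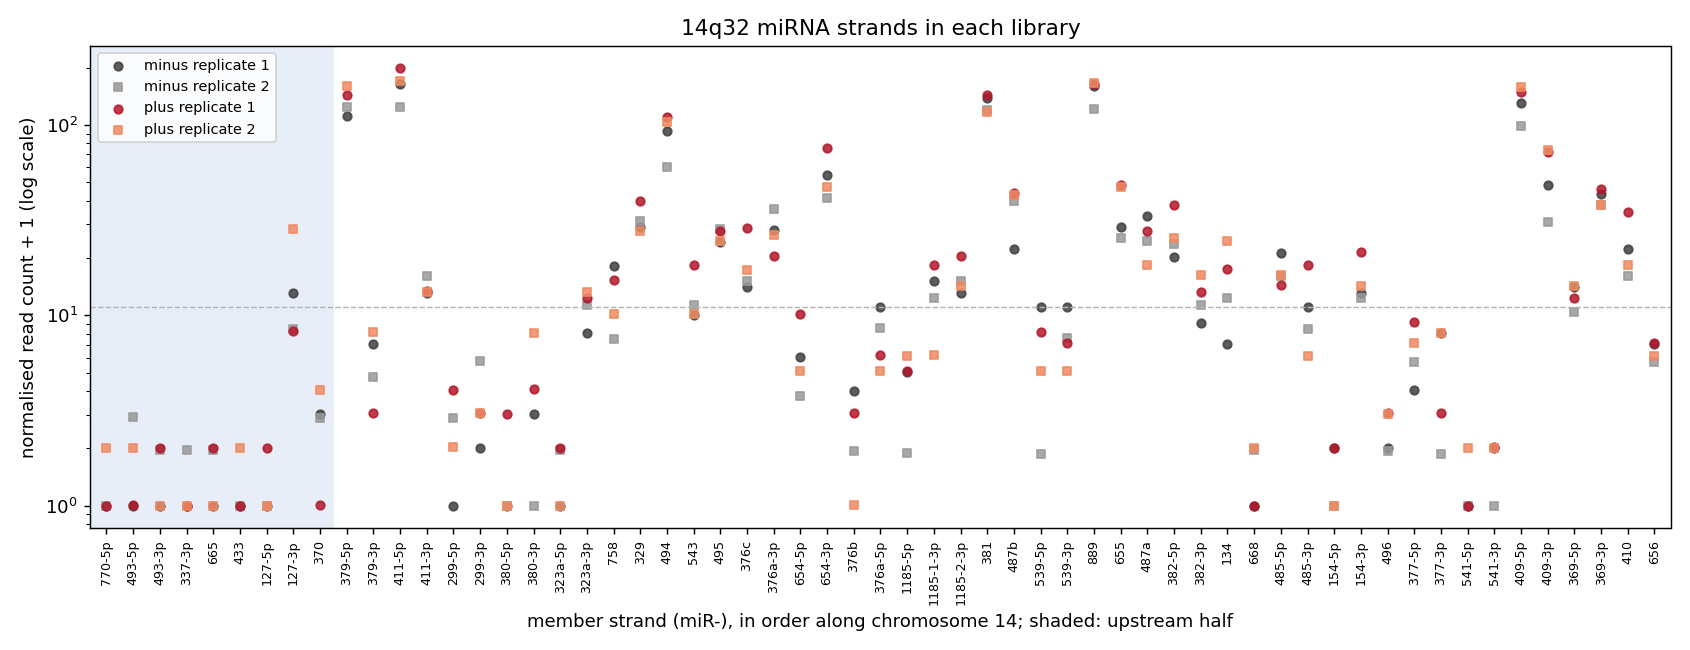
Levels of the 59 strands (normalised read count with 1 added, log axis) in the order of their hairpins along chromosome 14, with 1 point per library (grey, minus; red and orange, plus). Strands named without an arm are placed by the first strand of their hairpin, the upstream group is shaded, and the dashed line is the level needed for the test, a mean of 10. In the upstream group only miR-127-3p reaches that level, while miR-411-5p and miR-889 of the downstream group have the highest means.

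In the upstream group, miR-127-3p, which is transcribed antisense to RTL1 and pairs fully with its mRNA, had 12.1 and 7.45 normalised counts in the minus and 7.25 and 27.5 in the plus libraries. The groups overlapped, since plus replicate 1 was the lowest of all and plus replicate 2 the highest. The log2 change, 0.54 ± 0.50 (standard error), did not pass (limma adjusted p = 0.442), and it became −0.35 without plus replicate 2. The other 8 upstream rows (miR-127-5p, miR-337-3p, miR-370, miR-433, both strands of miR-493, miR-665 and miR-770-5p) had means of 0.24 to 1.74. They summed to 2.02 and 6.67 in the minus and 3.08 and 6.11 in the plus libraries, that is, 18 estimated reads over the 4 libraries. No change could be read at this depth.

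The downstream group spans 44.7 kb and was split by the GENCODE transcripts that hold the hairpins. Summed levels were highest in the stretch within introns of MEG8, which runs from miR-379 to miR-495, at 471 and 416 in the minus and 584 and 539 in the plus libraries. miR-370 also lies in an intron of MEG8 but was counted with the upstream group. The MIR381HG stretch, from miR-381 to miR-655, gave 366 and 309.5 against 408 and 376. The MEG9 stretch, from miR-541 to miR-656 with miR-410 in an exon, gave 261 and 194 against 315 and 303, with the highest ratio of the downstream stretches, 1.36. Hairpins between MIR381HG and MEG9 gave 120.0 and 109 against 157 and 131. Both plus libraries lay above both minus libraries in these 4 stretches, an arrangement that 29.1% of all tested miRNAs had singly. The sums lean on their highest strands, such as both strands of miR-409 in the MEG9 stretch, with a joint mean of 188. The groups overlapped between MEG8 and MIR381HG, the stretch of the miR-376 and miR-1185 genes, at 142 and 127 against 180 and 120.

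**Figure D2:**
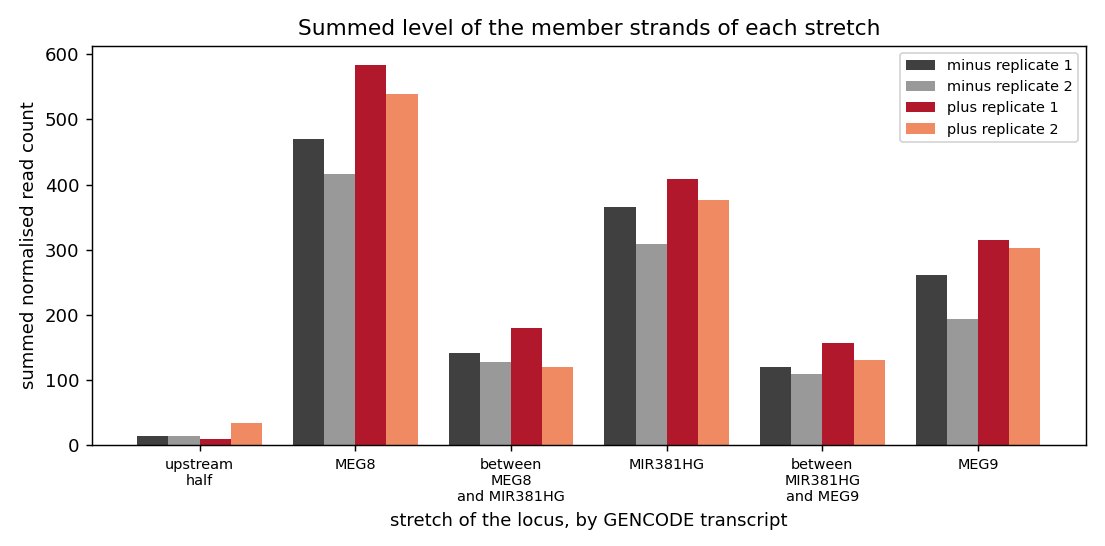
Summed normalised read count of the member strands in each stretch of the locus, with 1 bar per library. The upstream group stays at or below 33.6, and the MEG8 stretch is highest, at 416 to 584.

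A strand was tested where its mean over the 4 libraries was at least 10, which held for 31 of the 59 rows and left 28 below. The test was limma on log2(value + 1), plus against minus, adjusted by Benjamini-Hochberg over all 709 miRNAs tested. The log2 changes are on that scale, which understates the change of low strands, while a fold is the ratio of the group means. Of the 31 tested strands 2 rose, none fell and 29 did not pass, beside 28.5% of all tested miRNAs called (95 rose and 107 fell, or 121 and 83 with the first version of median-ratio scaling). Rises alone were 6.45% of the tested 14q32 strands and 13.4% of all tested miRNAs. Among the 346 other miRNAs in the same range of levels, rises were 7.23%, so the share of rises in the cluster was near its background. At an unadjusted p under 0.05 there were 6 of the 31 strands. Each miRNA called after adjustment also meets that threshold, so its background over all tested miRNAs is at least 28.5%.

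miR-409-3p, studied in tumour cell invasion, was one of the strands that rose. It stood at 47.4 and 30.0 in the minus and 70.9 and 72.5 in the plus libraries, and the groups did not overlap. The mean went from 38.7 ± 12.3 to 71.7 ± 1.13 (SD, n = 2 each), a 1.85-fold rise. On the log2 scale it rose by 0.91 ± 0.26 (standard error), with a 95% interval of 0.38 to 1.44 (limma adjusted p = 0.00774). About 79 estimated reads against 140 lie behind it, a read ratio of 1.86 (95% counting interval 1.40 to 2.48). The call was kept without minus replicate 1 (adjusted p = 0.00508) and was lost without minus replicate 2 (0.235), plus replicate 1 (0.193) and plus replicate 2 (0.178), all limma. It was also lost under quantile normalization (limma adjusted p = 0.0629), without a mean-variance trend (0.101) and without a level filter (0.177). Over the 4 fits with a library left out the log2 change ran from 0.59 to 1.23.

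miR-655 stood at 28.2 and 24.4 in the minus and at 47.2 and 45.9 in the plus libraries, again with no overlap. It rose 1.77-fold, from 26.3 ± 2.69 to 46.6 ± 0.919 (SD, n = 2 each), with a log2 change of 0.80, a standard error of 0.30 and a 95% interval of 0.20 to 1.40 (limma adjusted p = 0.0376). This call was lost with any of the 4 libraries left out (limma adjusted p from 0.0971 to 0.218), with equal library totals (0.0608), without a trend (0.0702) and without a level filter (0.123), while its log2 change stayed between 0.70 and 0.90 over the fits with a library left out. The 5p strands of the miR-655 and miR-409 hairpins start 15.7 kb apart.

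miR-134, which limits dendritic spine size in neurons through LIMK1, had the highest log2 change of the tested strands and did not pass. It stood at 6.07 and 11.3 in the minus and 16.4 and 23.4 in the plus libraries, about 18 against 39 estimated reads, a read ratio of 2.27 (95% counting interval 1.27 to 4.22). On the log2 scale the change was 1.15 ± 0.46 (standard error), with a 95% interval of 0.23 to 2.06 (limma adjusted p = 0.0529). It passed with limma under median-ratio scaling (adjusted p = 0.0382), under trimmed-mean scaling (0.0438) and at a minimum mean of 5 (0.0486). With the versions of these scalings over all values above 0 it also passed (limma adjusted p = 0.0351 and 0.0391). It did not pass with equal library totals (limma adjusted p = 0.0863), under quantile normalization (0.171), without a trend (0.113) or without a level filter (0.217). Nor did it pass with the replicate block (limma adjusted p = 0.0603) or with either other pseudocount. Over the 4 fits with a library left out the log2 change ran from 0.75 to 1.55.

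The 6 strands with the highest levels carried 56.1% of the summed level. miR-411-5p, the highest, ranked 332 of 1345 rows by mean level. It had 163 and 123 normalised counts in the minus and 198 and 169 in the plus libraries. miR-379-5p, which begins the downstream group, had 109.9 and 123 against 142 and 158. miR-409-5p had 130.02 and 98.1 against 147 and 156, and miR-494 had 91.7 and 59.3 against 108.9 and 102.1. In each of these 4 strands both plus libraries lay above both minus libraries, as in 29.1% of all tested miRNAs. Their log2 changes of 0.37, 0.36, 0.42 and 0.51, in that order, had standard errors of 0.18 to 0.22. None passed (limma adjusted p = 0.129, 0.147, 0.0940 and 0.0798), while miR-494 passed without minus replicate 1 (0.0380) and with median-ratio factors (0.0397). miR-409-5p passed only with median-ratio factors taken over all rows above 0, the version run first. miR-889 had 159 and 119.9 against 162 and 164, at a log2 change of 0.24 (limma adjusted p = 0.346).

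miR-381 was level across the libraries, at 137 and 119 in the minus and 142 and 115 in the plus libraries. Its log2 change was 0.00 with a 95% interval of −0.38 to 0.39 (limma adjusted p = 0.989), which leaves room for a change of that size in either direction. miR-369-3p, from the MEG9 stretch that also holds miR-409, had 42.3 and 36.8 against 45.2 and 36.8, at a log2 change of 0.05 with an interval of −0.52 to 0.62. miR-495 had 23.2 and 27.4 against 26.7 and 23.5, at a log2 change of −0.01 with an interval of −0.69 to 0.68. For these 3 strands the groups overlapped, and the sign of the change turned with the scaling: under equal library totals for miR-369-3p and miR-381, and under median-ratio scaling and quantile normalization for miR-495.

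Values were lower in the plus libraries for few strands. miR-376a-3p, whose precursors are known targets of adenosine-to-inosine editing in brain, had 27.2 and 35.1 in the minus and 19.6 and 25.55 in the plus libraries. It was the only tested strand with both plus libraries below both minus libraries, and its log2 change of −0.45 (95% interval −1.13 to 0.23) did not pass (limma adjusted p = 0.341). The name covers 2 genomic copies with the same mature strand. miR-487a had 32.2 and 23.6 against 26.7 and 17.4, at a log2 change of −0.34 (adjusted p = 0.496). miR-485-5p had 20.2 and 15.1 against 13.4 and 15.3, at a log2 change of −0.27 (95% interval −1.10 to 0.56, limma adjusted p = 0.666). miR-411-3p, the minor strand beside miR-411-5p, had 12.1 and 15.2 against 12.4 and 12.3, at −0.13 (−1.02 to 0.77, limma adjusted p = 0.861). miR-1185-1-3p went apart within the plus libraries, at 17.4 and 5.15 against 14.1 and 11.3 in the minus libraries, at a log2 change of −0.36 (95% interval −1.37 to 0.65, limma adjusted p = 0.630).

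miR-487b had 21.2 and 38.8 in the minus and 43.1 and 41.9 in the plus libraries, at a log2 change of 0.55 (limma adjusted p = 0.199). miR-376c had 13.1 and 14.1 against 27.7 and 16.4, at 0.61 (adjusted p = 0.276), and miR-654-3p had 53.4 and 40.5 against 75.0 and 46.0, at 0.33 (adjusted p = 0.377). In miR-376c and miR-654-3p the plus value is carried by replicate 1, with replicate 2 near the minus libraries. At the edge of the level needed for the test, miR-485-3p (mean 10.03) and miR-323a-3p (10.2) lay just inside, and miR-539-3p (6.74) and miR-376a-5p (6.73) just outside. The 20 downstream rows below that level together with the 8 upstream ones gave 4.59% of the summed level.

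**Figure D3:**
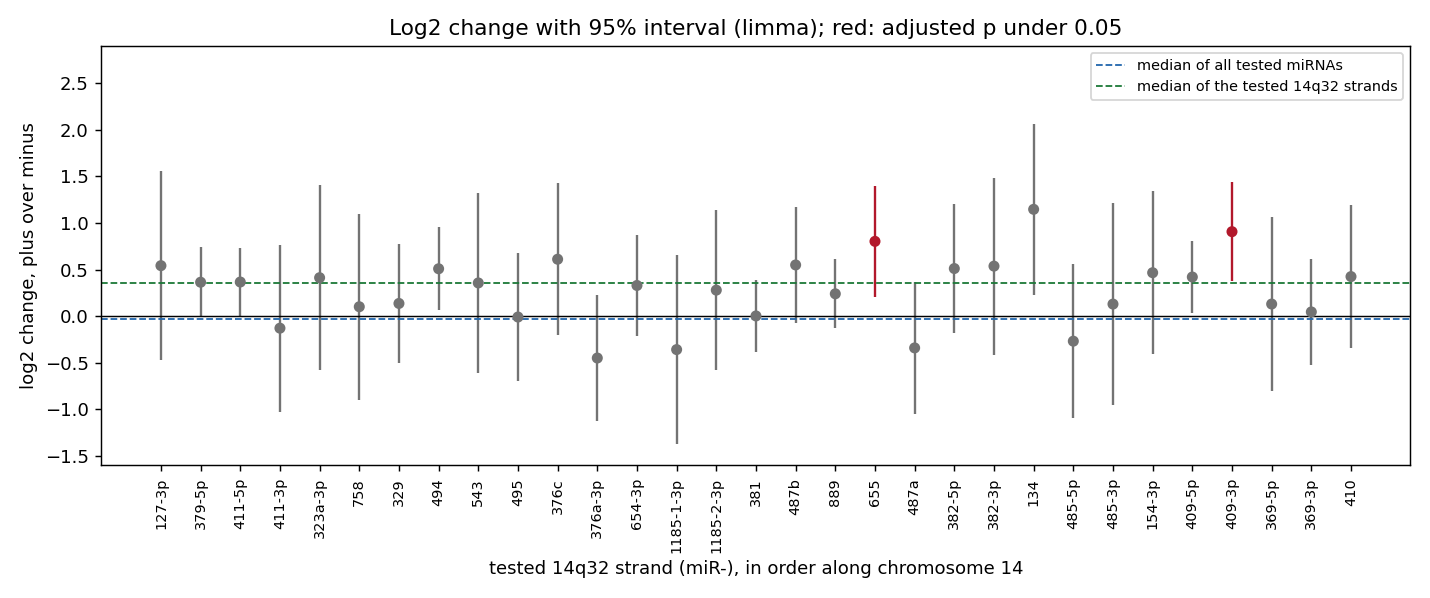
Change from minus to plus (log2) for each of the 31 tested strands, in order along chromosome 14, with 95% intervals from limma (not adjusted for the number of strands). miR-655 at 0.80 and miR-409-3p at 0.91 passed (red), 29 strands did not (grey), and dashed lines mark the medians of the 31 strands (0.36) and of all 709 miRNAs (−0.03).

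As a set, the tested strands lay to the side of higher values. Of the 31, 25 had a log2 change above 0 (80.6%), against 47.8% of all tested miRNAs and 43.4% of the 346 others in the same level range. That count rested in part on single libraries: it was 17 above and 14 below 0 without plus replicate 1, where the median was 0.17 and 46.0% of all tested miRNAs were above 0. Leaving out minus replicate 2 gave 22 and 9, leaving out minus replicate 1 gave 25 and 6, and leaving out plus replicate 2 gave 26 and 5. With all libraries the median was 0.36, beside −0.03 over all tested miRNAs and −0.10 in that level range. Both plus libraries lay above both minus libraries in 14 strands (45.2%), against a background of 29.1%, and below them in 1 strand, against a background of 33.9%. Among the 346 others in that level range these backgrounds were 21.7% and 33.2%. These counts are a description: strands cut from shared transcripts in the same 4 libraries are not independent, and no test compared the set with other miRNAs. The low levels limit what a single strand could show. Standard errors of the 31 log2 changes ran from 0.18 to 0.54 with a median of 0.35, against a median of 0.19 over all tested miRNAs. The 95% interval stayed below a doubling in 15 strands and above a halving in 26.

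Within each line, 1 library per condition allows no test. The median log2 change of the tested strands was 0.37 in the sh1 line and 0.20 in the sh2 line, beside −0.06 and −0.01 over all tested miRNAs. Both lines moved up in 16 strands and down in miR-376a-3p and miR-487a, and they went opposite ways in 13. Over all 709 miRNAs these shares were 34.1%, 39.1% and 26.8%. miR-655 went up by a log2 of 0.72 and 0.88 in the sh1 and sh2 lines, miR-409-3p by 0.57 and 1.24, and miR-134 by 1.3 and 0.99. miR-379-5p went up by 0.37 and 0.36, the closest match among the 6 highest strands.

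**Figure D4:**
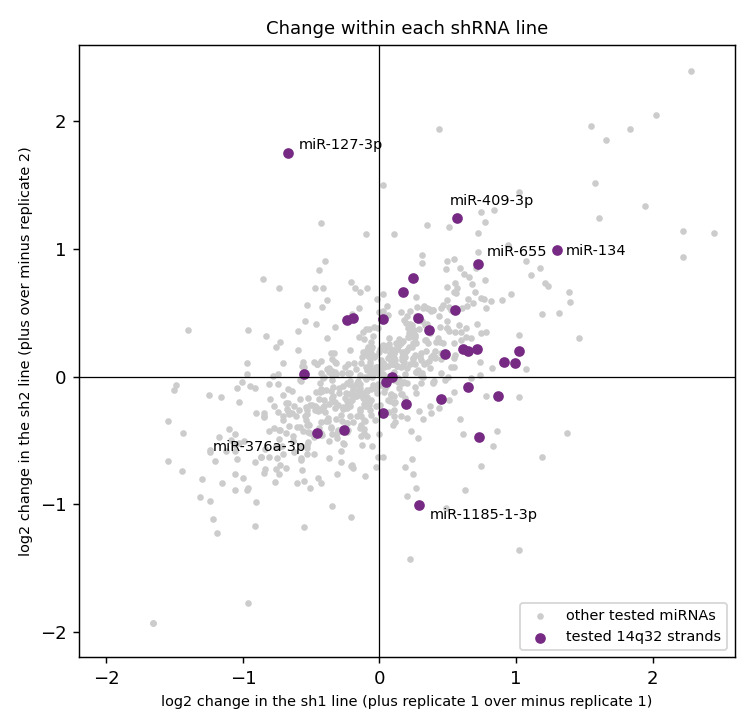
Log2 change within the sh1 line against that within the sh2 line, for the 31 tested 14q32 strands (purple) and the other tested miRNAs (grey), of which 5 lie outside the plotted range. miR-127-3p (−0.67 and 1.75) and miR-1185-1-3p (0.29 and −1.002) went opposite ways, and miR-655 (0.72 and 0.88) lies close to the diagonal.

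Both strands of a hairpin are cut from the same precursor, and their shares compare the amounts of each that were counted. For 12 hairpins both strands had a row and a joint mean of at least 10. The 5p strand held over 50% in every library for 4 of them (miR-379, miR-411, miR-409 and miR-382) and the 3p strand for 6 (miR-369, miR-376a, miR-654, miR-323a, miR-154 and miR-127), while miR-485 and miR-539 crossed that line. The miR-379 hairpin was the most one-sided of the 5p group, at 94.8% to 98.6% 5p, and miR-411 lay at 89.0% to 94.1%. On the other side miR-654 lay at 6.42% to 10.9% 5p. miR-127, miR-154 and miR-323a had lower mean 5p shares (1.84%, 3.43% and 4.59%), at joint means of only 13.8, 14.8 and 10.7. In miR-376a the 3p value sums both genomic copies, so its share is not that of 1 hairpin.

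The miR-409 hairpin held 73.3% and 76.6% 5p in the minus and 67.5% and 68.3% in the plus libraries, on 136 to 224 estimated reads each. Its plus shares lay below both minus shares, but the exact 95% binomial (Clopper-Pearson) intervals, which cover counting error only, overlapped. On the log2 scale the 3p to 5p ratio was higher by 0.49 in the plus libraries. The exact two-sided permutation test of 2 against 2 libraries gave p = 0.333, the smallest it can give, and 0.833 adjusted over the 5 hairpins compared, those with both strands tested. For miR-411 the same difference was −0.50 with the same p of 0.333 by the exact test, and for miR-382, miR-369 and miR-485 it was 0.03, −0.08 and 0.40 with an exact p of 1. In miR-485 the plus libraries stood at 43.5% and 74.9% 5p, on either side of both minus libraries.

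**Figure D5:**
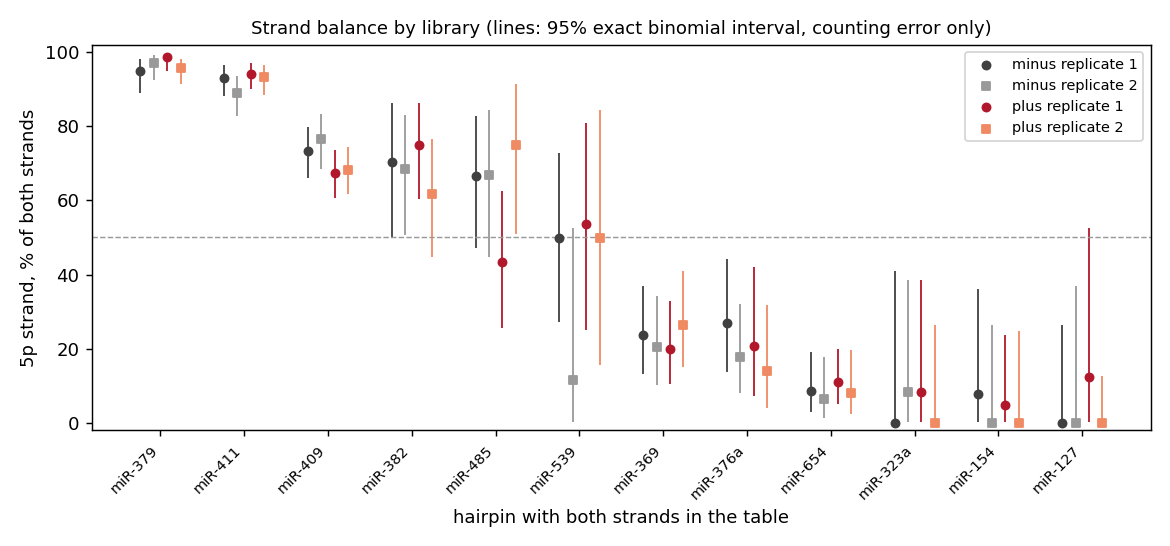
Share of the 5p strand in the sum of both strands, in percent, for the 12 hairpins with both strands in the table, by library, with 95% exact binomial intervals of the estimated reads. miR-379 and miR-411 stay at or above 89.0%, and the plus points of miR-409 (67.5% and 68.3%) lie below its minus points.

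Neighbours outside the list were read from the same fit. Among 4 further names of the imprinted domain with rows, miR-1247-5p, which lies near DIO3, had a level above any member. It fell from 569 ± 9.89 to 409.9 ± 21.3 (SD, n = 2 each), a log2 change of −0.47 (limma adjusted p = 0.00496), the opposite direction to most of the cluster. miR-1247-3p had a log2 change of −0.68 and did not pass (adjusted p = 0.276). On the same chromosome arm outside the imprinted domain, 1 of 6 tested rows passed. miR-203 rose from 47236 and 40025 to 54619 and 49696, a log2 change of 0.26 (limma adjusted p = 0.0172), in the direction of most of the cluster. The row named miR-151b, the highest of these 6, had a log2 change of 0.19 (limma adjusted p = 0.0725). Whether its reads came from this locus was not tested. The low strands miR-342-5p and miR-345-3p had log2 changes of −0.56 and −1.21 (limma adjusted p = 0.251 and 0.0661). miR-342-3p, with a mean of 3406, and miR-345-5p, with a mean of 3158, had log2 changes of 0.12 and −0.10 and did not pass (limma adjusted p = 0.347 and 0.458). Levels of different miRNAs also reflect how well each sequence is ligated and amplified, so these comparisons of level are approximate.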

How the data were processed

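Small-RNA libraries of 2 minus and 2 plus samples were compared. The authors deposited a signal for each mature miRNA, read here as normalised read counts because low values sit near multiples of a step that differs by library. The step explained 86.9% to 100% of low values, too few in minus replicate 2 for a count model; reads were estimated from it. Per the labels, reads were trimmed with cutadapt; the submitters' processing notes name TopHat2 2.0.8b, edgeR, hg19 and GRCh37, while neither counter nor annotation is given in the sources used here. The column names write sh4 where the titles write sh2; columns were matched by library number and index. limma 3.58.1 (R 4.3.3), allowing a mean-variance trend, was run on log2(value + 1) with a minimum mean of 10, Benjamini-Hochberg adjustment and a threshold of 0.05. It was also run on simulated data, which held no difference between lines and so do not show how the test behaves with 2 lines in a group. Libraries of a group come from separate lines, so the spread within a group includes how far 2 lines differ. The fit had 2 residual and 43.0 prior degrees of freedom. The p-values therefore rest mostly on the spread pooled over the 709 miRNAs by level, and little on a strand's own. Same-numbered libraries are of the same line (plus replicate 1 by elimination), and their deviations from group means correlated at 0.06 over the 709 miRNAs; a fit blocked on line is an alternative. Alternatives were 4 other scalings, other level minima and pseudocounts, no trend, the block, and each library left out. The median-ratio and trimmed-mean scalings were changed after their results were seen. Median-ratio factors were first taken over all rows above 0 and then over rows with a mean of at least 10. Trimmed-mean factors were first taken with a published package's function and then with a written-out version over values above 0.5. The first median-ratio version, and the written-out one over all values above 0, are given as added alternatives. Intervals of estimated reads are 95% exact binomial, scaled by the worth of a read, and cover counting error only. Sequences and coordinates are RefSeq and GENCODE release 29 on GRCh38. Members and lists were chosen with earlier results of these data known. Values with the log2 change and its adjusted p are given for strands that passed, the 10 highest, and the 6 with the highest and the 6 with the lowest log2 change; other strands were named by position, by strand or as neighbours of a threshold.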

Additional observations from a re-analysis of the deposited data

Results flagged for a closer look

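Of the 31 tested strands 13 went opposite ways in the sh1 and sh2 lines, with 1 library per line and condition, so the difference between the lines was not tested. The change in the sh2 line minus that in the sh1 line, on the log2 scale, was 2.42 for miR-127-3p, the only upstream strand tested. It was −1.29 for miR-1185-1-3p, −0.73 for its near-identical copy miR-1185-2-3p, −1.20 for miR-485-3p and 0.58 for miR-485-5p, the other strand of that hairpin. In the MEG8 stretch it was −1.03 for miR-543, −0.63 for miR-329, −0.41 for miR-495, −0.31 for miR-411-3p and 0.68 for miR-758. In the MEG9 stretch it was 0.65 for miR-369-5p and −0.093 for miR-369-3p, and for miR-381 it was −0.092. The last of these had both lines close to 0.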

How the results depend on the processing

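As reported 2 strands passed, also with the line as a replicate block (2 strands, and 216 of all miRNAs against 202) and with either other pseudocount. The count was 4 under median-ratio scaling, 3 under trimmed-mean scaling (30 strands tested) and at a minimum mean of 5, and 1 with equal library totals and 1 under quantile normalization. Of all tested miRNAs these fits called 28.1%, 27.6%, 25.4%, 24.7% and 14.5%, in that order. At a minimum mean of 100 that share was 36.5%. Versions of these scalings added after seeing the data gave 5 strands (median-ratio over all rows above 0, the version first run) and 4 (trimmed mean over all values above 0), and 204 and 194 of all miRNAs. It was 0 without a level filter, 0 at a minimum mean of 100, where neither miR-409-3p nor miR-655 was among the 5 strands tested, and 0 without a mean-variance trend, and ran from 0 to 2 with 1 library left out. At an unadjusted p under 0.05 these 3 fits gave 3, 0 and 5 strands, and the share of all miRNAs at that threshold was not counted. Over all miRNAs the count was 103 under quantile normalization, 5 without a level filter, 5 without a trend, and 7 to 115 with 1 library left out. The median change of the tested strands ran from 0.17 to 0.41 with 1 library left out. Strands near 0 changed sign: miR-369-3p (−0.0097) and miR-381 (−0.054) with equal totals, and miR-495 under median-ratio scaling (0.030, and 0.051 as first run), quantile normalization (0.050) and the added trimmed mean (0.027). With 1 library left out, the range crossed 0 for 13 of the 31 tested strands: miR-1185-1-3p (−1.15 to 0.43), miR-127-3p (−0.35 to 1.44), miR-369-3p (−0.10 to 0.19), miR-381 (−0.14 to 0.15), miR-411-3p (−0.28 to 0.023), miR-495 (−0.12 to 0.11), miR-654-3p (−0.016 to 0.68), miR-329 (−0.13 to 0.41), miR-369-5p (−0.089 to 0.35), miR-410 (−0.035 to 0.89), miR-485-3p (−0.66 to 0.92), miR-543 (−0.068 to 0.78) and miR-758 (−0.53 to 0.74). A fit with 1 library in a group assumes that it varies like the other group. The cause of these shifts was not tested.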

Other observations

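C19MC, the other large imprinted miRNA cluster, on chromosome 19 and known from placenta, stayed near the floor, with 23 rows and none tested. Its rows summed to 8.07 and 8.5 normalised counts in the minus libraries, against 51.0 and 16.4 in the plus libraries. Plus replicate 1 held most of the plus level.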
